A study of Homo sapiens with 4 samples.

Results

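Replication-dependent histone genes were examined in human SNU638 cells, an established line from gastric cancer, with ACTL6A knocked down. The genes were selected on their names alone: every probe set annotated with 1 gene symbol was taken if that symbol was H1-1 to H1-5 or began with H2AC, H2BC, H3C or H4C and a digit. This gave 49 probe sets of 44 genes, out of 54613 probe sets that are not controls, of which 41091 carry 1 symbol and stand for 19775 genes. The group itself was chosen by a reader of earlier results of the same contrast, so every value below is a description and no test is used to support it. The 49 probe sets were of the families H1 (5), H2A (11), H2B (15), H3 (8) and H4 (10). Among the genes, H2AC5P and H4C10P are annotated as pseudogenes.

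Both conditions were profiled on 2 single-colour arrays each. The sh-ACTL6A arrays carried RNA of SNU638 cells infected with lentivirus for a short hairpin RNA against ACTL6A in the pLKO.1 vector and then selected in puromycin, and the scramble arrays carried RNA of SNU638 cells given a scrambled RNA. It is not stated in the labels whether replicate arrays were separate cultures, or whether 1 hairpin or several hairpins were used across the sh-ACTL6A pair. The labels describe puromycin selection and a serum-supplemented medium for all cells alike. ACTL6A is an actin-related subunit of the BAF, INO80 and TIP60 chromatin complexes.

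Replication-dependent histone genes supply the H1, H2A, H2B, H3 and H4 proteins that package new DNA, and they are transcribed and their mRNAs stabilised mainly in S phase. Most lie in clusters on the short arm of chromosome 6, lack introns and give mRNAs that end in a conserved stem-loop instead of a poly(A) tail. Labelling of array targets usually starts from a primer on the poly(A) tail, so much of what such arrays read from these genes can come from the polyadenylated minority of their transcripts. H2BC12, H2BC5, H2AC6 and H1-2 are among the genes known to give polyadenylated mRNAs as well. Histone promoters are compact. H2A and H2B genes often sit head to head and share a divergent promoter with an octamer element bound by OCT1, and H1 promoters carry an upstream element rich in A and C.

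The proximal promoters of 7 members are printed below as examples of how these elements lie, with at least 1 gene of each family. They do not stand for their families, whose counts follow. Each is the 150 bases before the gene's annotated start, from RefSeq (GRCh38.p14), read 5′ to 3′ on the gene's own strand. Capitals mark matches on either strand to the TATA box (TATAAA), the CCAAT box, the octamer core (TTTGCAT) or the H1 element (AAACACA). On the opposite strand a CCAAT box reads ATTGG, while an octamer core there reads ATGCAAA.
H1-2 (chr6:26056471-26056620, minus strand): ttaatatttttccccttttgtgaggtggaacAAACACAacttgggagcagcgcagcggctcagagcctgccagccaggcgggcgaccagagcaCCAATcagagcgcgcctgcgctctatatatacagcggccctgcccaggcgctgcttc
H2AC6 (chr6:26124022-26124171, plus strand): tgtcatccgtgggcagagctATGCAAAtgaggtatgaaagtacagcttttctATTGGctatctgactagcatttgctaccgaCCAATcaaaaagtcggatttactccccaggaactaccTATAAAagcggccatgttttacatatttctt
H2BC12 (chr6:27146859-27147008, minus strand): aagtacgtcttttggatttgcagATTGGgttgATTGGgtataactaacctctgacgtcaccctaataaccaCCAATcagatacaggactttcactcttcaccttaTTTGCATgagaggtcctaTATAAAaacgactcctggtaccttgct
H2BC11 (chr6:27132796-27132945, minus strand): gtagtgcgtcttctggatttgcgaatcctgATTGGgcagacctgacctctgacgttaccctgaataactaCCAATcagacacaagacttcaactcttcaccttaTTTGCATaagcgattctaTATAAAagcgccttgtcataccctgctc
H3C6 (chr6:26224028-26224177, plus strand): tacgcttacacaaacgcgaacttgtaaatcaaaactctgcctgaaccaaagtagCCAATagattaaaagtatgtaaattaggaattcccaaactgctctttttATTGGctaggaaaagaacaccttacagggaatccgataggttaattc
H4C8 (chr6:26285535-26285684, minus strand): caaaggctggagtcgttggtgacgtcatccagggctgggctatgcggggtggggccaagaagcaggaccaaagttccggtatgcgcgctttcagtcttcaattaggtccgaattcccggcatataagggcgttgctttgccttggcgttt
H2BC15 (chr6:27838419-27838568, plus strand): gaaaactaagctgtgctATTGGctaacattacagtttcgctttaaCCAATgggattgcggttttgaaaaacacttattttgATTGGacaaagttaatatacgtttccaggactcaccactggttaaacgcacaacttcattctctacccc

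H2AC6, H2BC12 and H2BC11 each held a TATAAA match, CCAAT matches and an octamer core, H1-2 held CCAAT and the H1 element, H3C6 and H2BC15 held CCAAT alone in these bases, and H4C8 held no match. RefSeq gave a promoter for 39 of the 44 genes, and the motifs were searched on both strands from 250 bases before to 50 bases after the start. TATAAA was present in 27 of the 39 histone promoters (69.2%), against 12% of all 27305 promoters. CCAAT was present in 34 of 39 (87.2%), against 35.7% of all promoters, and it was in every H1, H2A, H2B and H3 promoter searched but in only 2 of the 7 H4 promoters. The octamer core was present in 16 of 39 (41.0%), against 4.51% of all promoters. It was found in 6 of 8 H2A and 10 of 13 H2B promoters and in none of the H1, H3 or H4 promoters. AAACACA was present in 5 of 5 H1 promoters and in no other histone promoter, against 5.76% of all promoters. These matches are letters in a window and were not tested for binding.

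ACTL6A itself read 10.16 and 10.32 on the sh-ACTL6A arrays and 11.92 and 11.82 on the scramble arrays, all as log2 signal. Both sh-ACTL6A arrays lay well below both scramble arrays, a log2 difference, sh-ACTL6A minus scramble, of -1.63 ± 0.12 (SE), with 95% confidence bounds of -1.92 and -1.33. Fitted over all 54613 probe sets its limma adjusted p was 0.281, so it did not pass the threshold of 0.05, and 0 probe sets (0%) did. Of the defining markers of epithelial cells, 6 of 7 reached a mean log2 signal of 5.63 (EPCAM, CDH1, KRT8, KRT18, KRT19 and CLDN7), while 0 of 3 measured leukocyte markers and 2 of 6 fibroblast and endothelial markers (COL1A1 and PECAM1) did. This threshold is the 50th percentile of the mean log2 signal of all probe sets, the mean being over all arrays of both groups. Probe sets at or above it are called bright and those below it dim. KRT18 was the only marker of the 3 lists whose groups did not overlap, at 14.12 and 14.28 on the sh-ACTL6A arrays and 14.51 and 14.58 on the scramble arrays.

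Most histone probe sets read higher on the sh-ACTL6A arrays. The median difference over the 49 was 0.54 on the log2 scale, a fold of 1.46, whereas the median over all probe sets was -0.00439. A total of 42 of 49 lay above 0, where 49.5% of all probe sets did. Both sh-ACTL6A arrays exceeded both scramble arrays for 33 of the 49, as they did for 16.7% of all probe sets. Both lay below for 2 of the 49, as for 17.1% of all probe sets, and these were H2BC15 and a dim probe set of H2AC25. The 2 groups overlapped for the other 14. In a bulk sample, a larger share of cells in S phase and more histone RNA per cell cannot be told apart. Nor can either be told from a larger polyadenylated part of that RNA, and none of these was tested.

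No histone probe set passed the limma adjusted threshold (0 of 49, lowest adjusted p = 0.960 over all probe sets). At an unadjusted p under 0.05, limma counted 10 of 49 as higher and 0 as lower, where it counted 2.35% and 2.65% of all probe sets. This count depended on the fit, which lets the variance follow the signal. Without that intensity trend limma counted 3 of 49 in either direction, and with the trend and median centring 14. The methods' t-test on the same values counted 4 as higher and 1 as lower at an unadjusted p under 0.05, where it counted 2.69% of all probe sets in each direction, and 0 after Benjamini-Hochberg adjustment. The 10 of the main limma fit were H2AC6, H2AC17, H2AC25, H2BC5 (both probe sets), H2BC9, H2BC11, H2BC12, H2BC12L and H4C8. All 10 belong to the bright members, where limma counted 684 of all 27307 bright and 602 of all 27306 dim probe sets as higher. Of the 10, 9 are of H2A or H2B genes, which hold 7 and 11 of the 31 bright members.

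**Figure D1:**
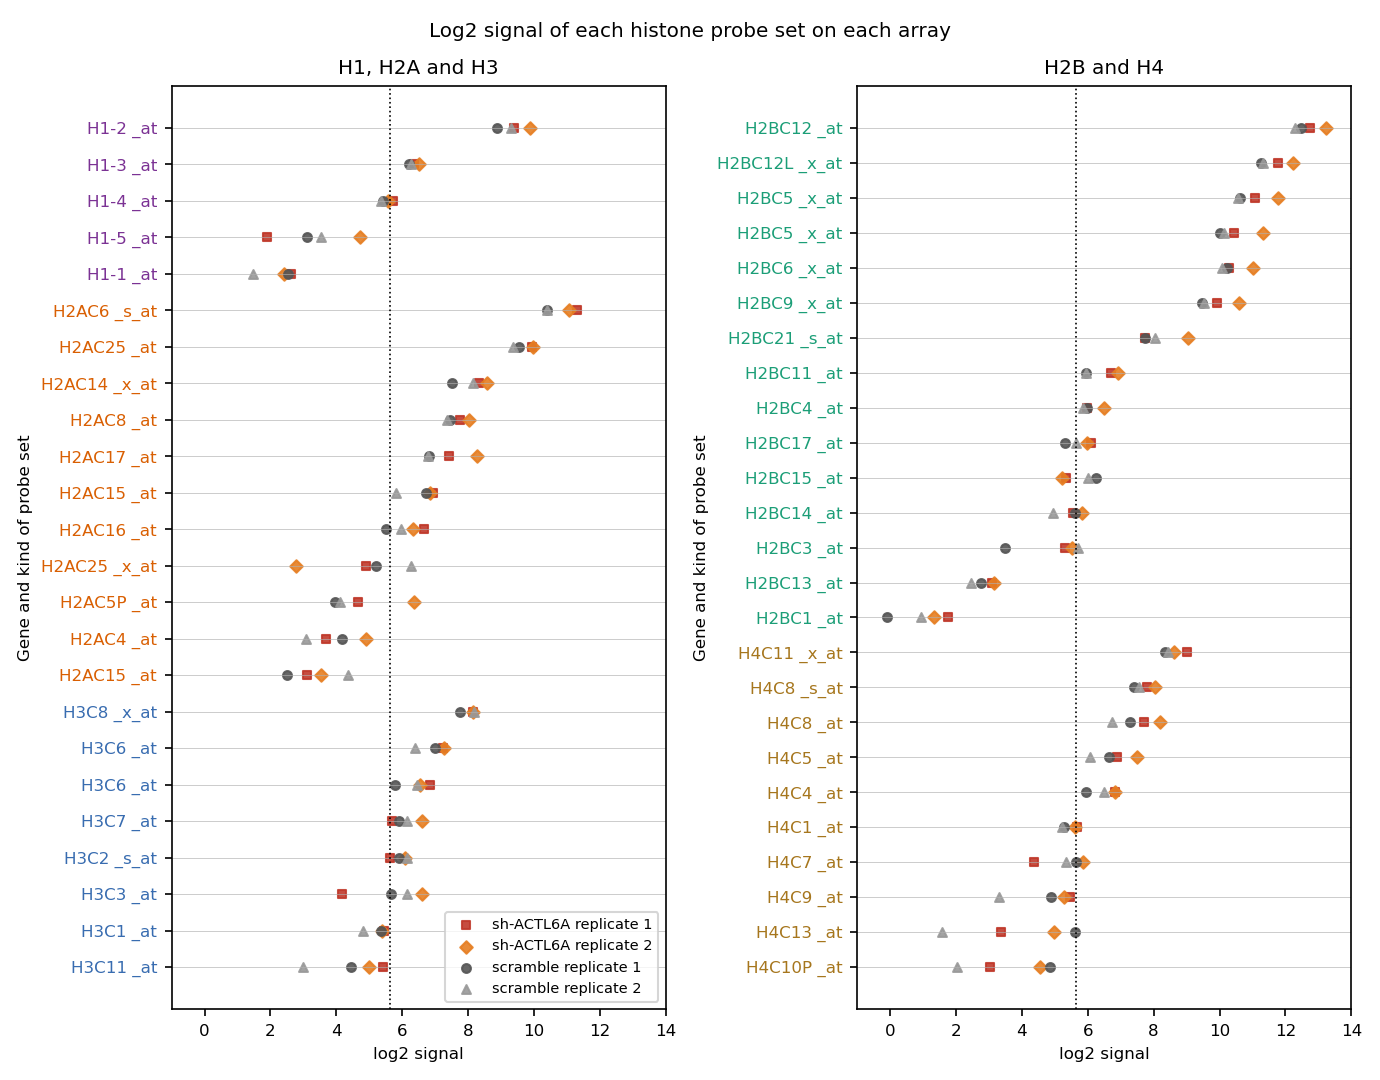
Log2 signal (horizontal axis) of each of the 49 histone probe sets (rows, ordered by family and then by mean signal) on each of the 4 arrays, with squares and diamonds for sh-ACTL6A and circles and triangles for scramble. The dotted line is the signal threshold of 5.63; to its right the sh-ACTL6A points mostly lie right of the scramble points, and to its left the order is less regular.

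Arrays of a group read closer together at higher signal. Of the 49 histone probe sets, 31 reached the threshold of 5.63. Among these 31 bright members the median difference was 0.56, against 0.0125 for all probe sets at that level. A total of 28 of 31 lay above 0, 25 were higher on both sh-ACTL6A arrays (as were 18.3% of all bright probe sets) and 1 was lower on both. The difference was at least 0.5 for 18 of the 31, where 4.86% of all bright probe sets differed by that much upward. The filter uses the arrays being compared, so a probe set can pass through either group. H2BC17, counted in the 25 and in the 18, passed through sh-ACTL6A, with a scramble mean of 5.48. H2BC15 and H3C3 passed through scramble, with sh-ACTL6A means of 5.29 and 5.38. Among the 18 dim members the range widened to -1.90 to 1.48, and the groups overlapped for 9 of them.

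**Figure D2:**
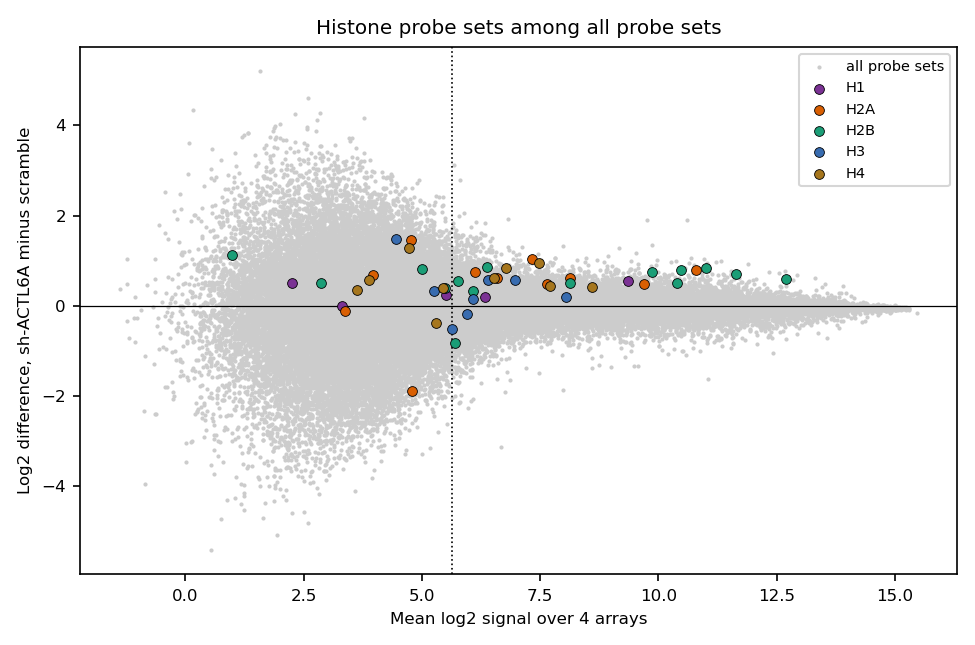
Difference in log2 signal (sh-ACTL6A minus scramble, vertical axis) against the mean log2 signal over the 4 arrays (horizontal axis), with all probe sets in grey and histone probe sets coloured by family. Right of the dotted threshold at 5.63, 28 of 31 histone probe sets lie above 0, in the upper part of a grey cloud that narrows as signal increases.

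The 2 knockdown arrays did not stand equally far above the scramble arrays. Against the mean of the scramble arrays, the median histone difference was 0.42 for sh-ACTL6A replicate 1 and 0.61 for sh-ACTL6A replicate 2. Taken array by array, it was 0.38 and 0.44 for sh-ACTL6A replicate 1 over scramble replicates 1 and 2, and 0.66 and 0.66 for sh-ACTL6A replicate 2 over the same arrays. Every pairing was thus positive. Within groups, sh-ACTL6A replicate 2 exceeded replicate 1 by a median of 0.26 and was higher for 32 of 49, while scramble replicate 2 minus replicate 1 had a median of -0.01. For single probe sets, the median size of the difference between replicates was 0.40 for sh-ACTL6A and 0.35 for scramble.

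Some control probe sets moved with the groups as well. The poly(A) spike-in dap, a bacterial RNA added to the sample, read 10.43 and 10.60 on the sh-ACTL6A arrays and 10.03 and 10.36 on the scramble arrays, and phe read 7.65 and 7.71 on the sh-ACTL6A arrays and 7.34 and 7.42 on the scramble arrays. For both, the groups did not overlap, whereas they overlapped for lys and thr, whose differences were 0.21 and 0.08. Lys read 6.79 and 6.90 on the sh-ACTL6A arrays and 6.47 and 6.80 on the scramble arrays. Thr read 7.05 and 7.49 on the sh-ACTL6A arrays and 6.97 and 7.41 on the scramble arrays. Each sh-ACTL6A array thus exceeded the scramble array of the same replicate number for all of these spike-ins. The 18S rRNA probe sets read 9.92 and 10.70 on the sh-ACTL6A arrays and 9.56 and 10.45 on the scramble arrays, also overlapping. Compared by replicate number, sh-ACTL6A was again higher for 18S rRNA. The 28S rRNA probe sets differed by 0.03 and the hybridisation controls by -0.03. The signal of the 3′ end of ACTB over its 5′ end, a measure of RNA integrity, was 1.21 and 0.78 on the sh-ACTL6A arrays and 1.63 and 0.78 on the scramble arrays. The part of these differences in the histone values was not tested.

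H2A proteins pair with H2B in the nucleosome, and the H2A genes with bright probe sets read higher throughout. All 7 bright H2A probe sets were higher on both sh-ACTL6A arrays, by 0.48 to 1.04, and the median over all 11 was 0.62. H2AC6, the brightest of them, read 11.31 and 11.06 on the sh-ACTL6A arrays and 10.40 and 10.39 on the scramble arrays. The scramble arrays agreed to within 0.01 and both sh-ACTL6A arrays were well above them, a difference of 0.79 ± 0.14 (SE), or 1.73-fold. H2AC17 read 7.41 and 8.26 on the sh-ACTL6A arrays and 6.82 and 6.78 on the scramble arrays, the highest difference among bright members of any family (1.04 ± 0.34, SE, 2.05-fold). Its excess came more from sh-ACTL6A replicate 2 (1.47 over the scramble mean) than from replicate 1 (0.61).

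H2AC16 read 6.65 and 6.32 on the sh-ACTL6A arrays and 5.52 and 5.96 on the scramble arrays (0.75 ± 0.40, SE). H2AC14 read 8.33 and 8.58 on the sh-ACTL6A arrays and 7.50 and 8.15 on the scramble arrays (0.62 ± 0.27, SE), and H2AC8 read 7.75 and 8.02 on the sh-ACTL6A arrays and 7.45 and 7.36 on the scramble arrays (0.48 ± 0.23, SE). For all 3 the groups were apart, though the gap between the nearest arrays of H2AC14 was small beside the spread of the scramble arrays. H2AC5P, a pseudogene, held the highest H2A value (1.46 ± 0.75, SE) at a dim signal, 4.65 and 6.34 on the sh-ACTL6A arrays and 3.95 and 4.12 on the scramble arrays. H2AC4 overlapped, at 3.68 and 4.92 on the sh-ACTL6A arrays and 4.17 and 3.07 on the scramble arrays.

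Of the H2A genes, H2AC25 and H2AC15 had 2 probe sets each, and they disagreed. H2AC25, which lies on chromosome 1 away from the main clusters, read 9.93 and 9.96 on the sh-ACTL6A arrays and 9.55 and 9.37 on the scramble arrays with its bright _at probe set (0.49 ± 0.14, SE). Its dim _x_at probe set read 4.90 and 2.79 on the sh-ACTL6A arrays and 5.20 and 6.28 on the scramble arrays, the lowest histone value at -1.90 ± 0.87 (SE). H2AC15 read 6.95 and 6.83 on the sh-ACTL6A arrays and 6.73 and 5.80 on the scramble arrays with its bright probe set (0.62 ± 0.40, SE). With its dim probe set it read 3.13 and 3.53 on the sh-ACTL6A arrays and 2.51 and 4.36 on the scramble arrays (-0.11 ± 0.94, SE). In both genes the bright probe set was higher in sh-ACTL6A and the dim one was not.

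H2B was the largest family, with a median difference of 0.59 over 15 probe sets. A total of 14 of the 15 lay above 0, and both sh-ACTL6A arrays exceeded both scramble arrays for 11. H2BC12 read 12.75 and 13.22 on the sh-ACTL6A arrays and 12.48 and 12.31 on the scramble arrays (0.59 ± 0.17, SE). H2BC12L, a related gene on chromosome 21, read 11.76 and 12.22 on the sh-ACTL6A arrays and 11.26 and 11.33 on the scramble arrays (0.69 ± 0.17, SE). In both, sh-ACTL6A replicate 2 was the highest array.

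H2BC5 had 2 probe sets that agreed closely. With the brighter it read 11.08 and 11.76 on the sh-ACTL6A arrays and 10.61 and 10.57 on the scramble arrays (0.84 ± 0.22, SE), and with the other it read 10.44 and 11.31 on the sh-ACTL6A arrays and 10.00 and 10.14 on the scramble arrays (0.80 ± 0.27, SE). H2BC11 read 6.70 and 6.93 on the sh-ACTL6A arrays and 5.94 and 5.96 on the scramble arrays, the highest difference of the bright H2B probe sets (0.87 ± 0.34, SE). Its arrays were close together within each group. H2BC9 (0.76 ± 0.23, SE) and H2BC6 (0.50 ± 0.24, SE) were likewise higher on both sh-ACTL6A arrays, but H2BC6 replicate 1 of sh-ACTL6A stood only just above the scramble arrays, at 10.28 and 11.02 on the sh-ACTL6A arrays and 10.22 and 10.08 on the scramble arrays.

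The H2B excess was carried mainly by sh-ACTL6A replicate 2, whose family median over the scramble mean was 0.92 against 0.42 for replicate 1. The median was therefore 0.92 without sh-ACTL6A replicate 1. H2BC21, on chromosome 1, read 7.74 and 9.03 on the sh-ACTL6A arrays and 7.72 and 8.06 on the scramble arrays, so that replicate 1 lay within the scramble values (0.49 ± 0.41, SE). H2BC4 (0.32 ± 0.40, SE) and H2BC17 (0.55 ± 0.44, SE) were the remaining bright H2B genes with groups apart in this direction.

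H2BC15 ran the other way. It read 5.35 and 5.23 on the sh-ACTL6A arrays and 6.23 and 6.00 on the scramble arrays, a difference of -0.82 ± 0.44 (SE, limma unadjusted p = 0.105, not called) and the only bright histone probe set that was lower on both sh-ACTL6A arrays. Its mean signal, 5.70, lay just above the threshold. The dim H2BC1, a testis-specific H2B gene that lies on chromosome 6 apart from both blocks, read 1.77 and 1.34 on the sh-ACTL6A arrays and -0.09 and 0.93 on the scramble arrays. That is the highest H2B difference (1.13 ± 0.87, SE) and also has a wide SE. H2BC13 was higher on both sh-ACTL6A arrays at a dim signal (0.51 ± 0.83, SE), and the dim H2BC14 (0.40 ± 0.51, SE) and H2BC3 (0.82 ± 0.82, SE) overlapped.

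H4 and H3 form the tetramer at the centre of the nucleosome, and their genes differed in how regularly they read higher. All 5 bright H4 probe sets were higher on both sh-ACTL6A arrays, by 0.41 to 0.95, and the median over the 10 H4 probe sets was 0.51. It was 0.85 without sh-ACTL6A replicate 1 and 0.77 without scramble replicate 1. H4C8 had 2 probe sets above the threshold. With the _at probe set it read 7.71 and 8.18 on the sh-ACTL6A arrays and 7.27 and 6.72 on the scramble arrays (0.95 ± 0.30, SE), and with the _s_at probe set it read 7.79 and 8.05 on the sh-ACTL6A arrays and 7.39 and 7.55 on the scramble arrays (0.45 ± 0.23, SE). Both gave the same direction with the groups apart.

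H4C5 read 6.89 and 7.49 on the sh-ACTL6A arrays and 6.65 and 6.08 on the scramble arrays (0.83 ± 0.37, SE). H4C4 read 6.84 and 6.82 on the sh-ACTL6A arrays and 5.95 and 6.48 on the scramble arrays (0.61 ± 0.35, SE). H4C11 read 9.00 and 8.61 on the sh-ACTL6A arrays and 8.35 and 8.45 on the scramble arrays (0.41 ± 0.20, SE), and here replicate 1 was the higher sh-ACTL6A array. Dim H4 members were irregular. H4C9 differed by 1.28 ± 0.74 (SE) and H4C1 by 0.39 ± 0.47 (SE) with the groups apart. In contrast, H4C7, H4C13 and the pseudogene H4C10P overlapped, with H4C7 the lowest at -0.37 ± 0.65 (SE). H4C13 read 3.36 and 4.97 on the sh-ACTL6A arrays and 5.60 and 1.59 on the scramble arrays, so its scramble arrays alone lay further apart than the groups of any histone probe set.

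H3 was less uniform. The median over 8 H3 probe sets was 0.26, and over the 6 bright ones it was 0.17. Of all 27307 bright probe sets, 4990 were higher and 4124 lower on both sh-ACTL6A arrays. Among the 6 bright H3 probe sets the groups were apart for 2, a share near that of all bright ones. Both were higher, and both were probe sets of H3C6. With the brighter it read 7.23 and 7.27 on the sh-ACTL6A arrays and 6.99 and 6.38 on the scramble arrays (0.56 ± 0.32, SE), and with the other it read 6.83 and 6.53 on the sh-ACTL6A arrays and 5.79 and 6.44 on the scramble arrays (0.57 ± 0.39, SE). H3C8, the brightest of the family, read 8.16 and 8.14 on the sh-ACTL6A arrays and 7.74 and 8.18 on the scramble arrays, overlapping (0.19 ± 0.23, SE).

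H3C7 and H3C2 overlapped too, at 0.15 ± 0.45 and -0.18 ± 0.42 (SE). H3C3 read 4.18 and 6.59 on the sh-ACTL6A arrays and 5.65 and 6.15 on the scramble arrays, a value of -0.52 ± 0.81 (SE) that rests on sh-ACTL6A replicate 1. The mean signal of H3C3, 5.64, lay just above the threshold, so it is among the bright H3 probe sets by a narrow margin. The dim H3C11 had the highest difference of all histone probe sets (1.48 ± 0.77, SE), at 5.40 and 4.99 on the sh-ACTL6A arrays and 4.46 and 2.97 on the scramble arrays, with scramble replicate 2 far below the rest. The H3 median moved with single arrays, to 0.50 without sh-ACTL6A replicate 1 and to 0.13 without scramble replicate 1. Whether H3 differs from H2A, H2B or H4 was not tested.

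H1 proteins bind the linker DNA between nucleosomes, and 3 of the 5 H1 genes were higher on both sh-ACTL6A arrays, with a family median of 0.24 that became 0.39 without sh-ACTL6A replicate 1. H1-2 read 9.39 and 9.88 on the sh-ACTL6A arrays and 8.88 and 9.31 on the scramble arrays (0.54 ± 0.23, SE). The groups were apart by less than 0.1, since scramble replicate 2 came close to sh-ACTL6A replicate 1. H1-3 (0.20 ± 0.34, SE) and the dim H1-4 (0.24 ± 0.46, SE) differed less, although their arrays agreed well within each group. H1-4 read 5.71 and 5.57 on the sh-ACTL6A arrays and 5.42 and 5.37 on the scramble arrays. H1-5 read 1.90 and 4.71 on the sh-ACTL6A arrays and 3.10 and 3.53 on the scramble arrays, and H1-1 read 2.62 and 2.40 on the sh-ACTL6A arrays and 2.54 and 1.48 on the scramble arrays, both overlapping at dim signals.

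**Figure D3:**
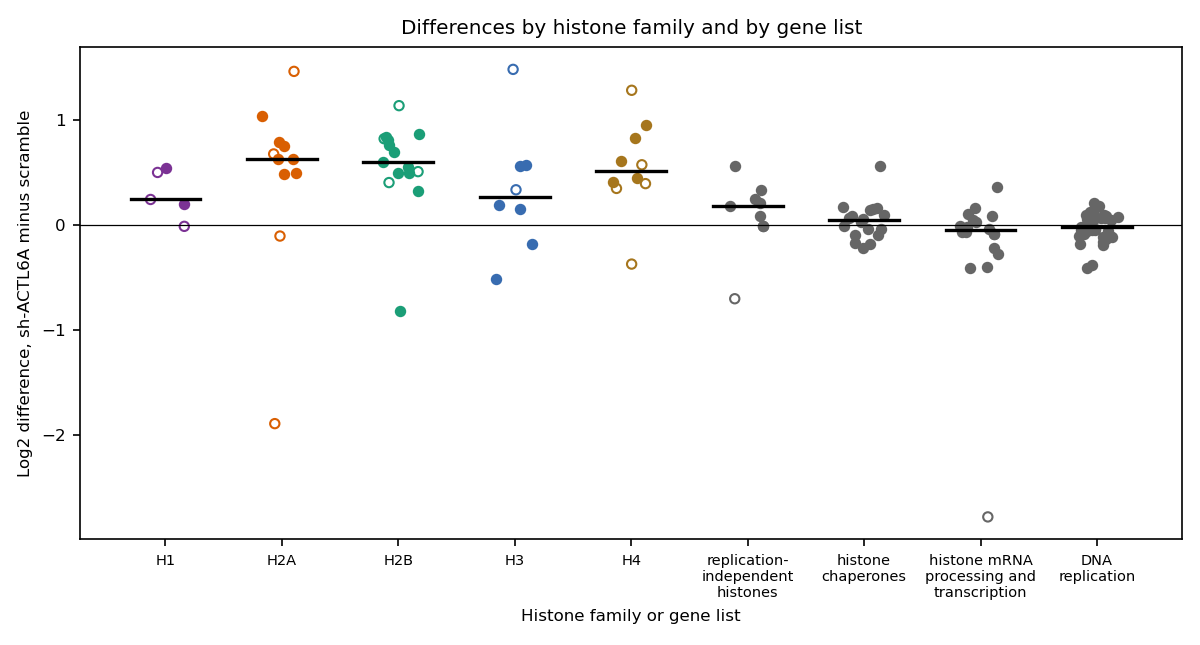
Difference in log2 signal (sh-ACTL6A minus scramble, vertical axis) of each probe set by histone family and of each gene in 4 lists, with filled points at or above the signal threshold, open points below it and bars for medians. The family medians run from 0.24 for H1 to 0.62 for H2A, and the list medians from -0.05 to 0.18.

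Probe sets can pick up related genes, and histone coding sequences are much alike. By the array maker's naming, an _at probe set is meant for 1 transcript, while _s_at and _x_at probe sets may share probes with others. For histones the ending does not ensure this. Some histone _at probe sets, left out here, list several genes, up to 14 symbols. The median difference was 0.55 for the 36 _at probe sets, 0.62 for the 9 _x_at probe sets and 0.47 for the 4 _s_at probe sets. Over all probe sets of these kinds it was -0.01, -0.02 and 0.01. The _s_at median fell to 0.08 without sh-ACTL6A replicate 2, and it rests on H2AC6, H2BC21, H4C8 and H3C2. Of the bright H2B members, H2BC5, H2BC6, H2BC9 and H2BC12L are read by _x_at probe sets, so their values may not be independent of each other.

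Higher values were spread along the clusters. Of the 27 probe sets in the first block of chromosome 6, 19 were higher on both sh-ACTL6A arrays and 0 lower, with a median of 0.50. Of the 17 in the second block, 11 were higher and 1 lower, with a median of 0.57. The 4 on other chromosomes had a median of 0.49. No stretch of neighbouring genes lay consistently below 0, and H2BC15, at -0.82, stands between H2AC15 and H2AC16, whose bright probe sets differed by 0.62 and 0.75.

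**Figure D4:**
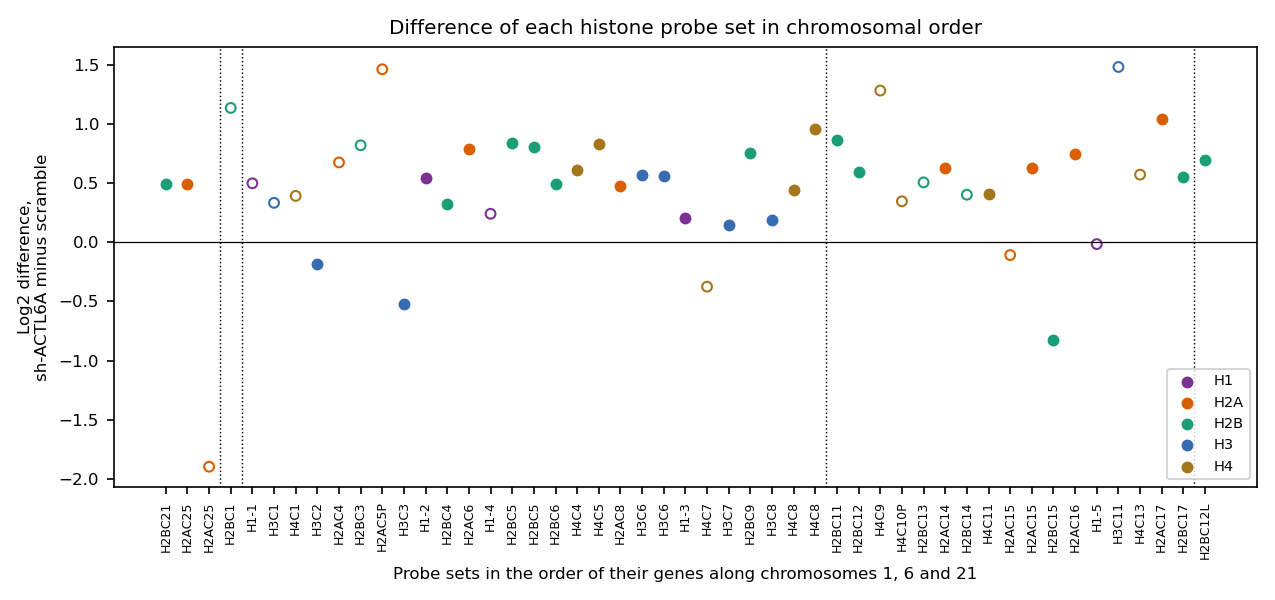
Difference in log2 signal (sh-ACTL6A minus scramble, vertical axis) of each histone probe set in the order of the genes along chromosomes 1, 6 and 21 (horizontal axis), with filled points at or above the signal threshold and open points below it. Dotted lines separate chromosome 1, H2BC1, the first and the second block of chromosome 6, and chromosome 21; values near 0.5 recur along both blocks, and H2BC15 is the lowest filled point.

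In the RefSeq annotation, 4 pairs of an H2A and an H2B gene point away from each other with their starts under 300 bases apart. H2AC6 and H2BC4 differed by 0.79 and 0.32, H2AC17 and H2BC17 by 1.04 and 0.55, and H2AC14 and H2BC14 by 0.62 and 0.40. In the fourth pair, H2AC15 differed by 0.62 with its bright probe set and H2BC15 by -0.82. In all 4 pairs the H2A member, by its bright probe set, had the higher difference. With 2 arrays per group this order was not tested.

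Presence of the octamer core was set against the differences after the values had been seen. The 16 H2A and H2B genes with a TTTGCAT match, each with 1 probe set, had a median difference of 0.65 and a range of 0.32 to 1.13. All 16 lay above 0 and 12 were higher on both sh-ACTL6A arrays. The 5 genes without it, H2AC15, H2AC25, H2BC5, H2BC13 and H2BC15, had 8 probe sets with a median of 0.50 and a range of -1.90 to 0.84, of which 5 were higher and 2 lower on both sh-ACTL6A arrays. H2BC5, without the match, differed by 0.84 and 0.80, close to H2BC11 with the match at 0.87. H2BC15 held neither TATAAA nor TTTGCAT in the window searched.

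Lists of genes that work with the replication-dependent histones had medians nearer to 0. The replication-independent histones, which are mostly made through the cell cycle from mRNAs with poly(A) tails, had a median of 0.18 over 9 of 11 listed genes. A total of 4 were higher on both sh-ACTL6A arrays and 0 lower, where 17.4% and 17% of all genes, by 1 probe set each, were higher and lower on both. H2AX, the variant phosphorylated at DNA breaks, read 12.60 and 12.87 on the sh-ACTL6A arrays and 12.26 and 12.56 on the scramble arrays (0.33 ± 0.15, SE). H2AJ (0.25 ± 0.14, SE) and CENPA, the centromeric H3 variant (0.21 ± 0.14, SE), were also higher on both. H2AZ1, a bright variant gene, differed by -0.01.

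Histone chaperones had a median of 0.04 over 18 of 18 genes, with 3 higher and 3 lower on both sh-ACTL6A arrays. Both counts were near the shares of all genes, 17.4% and 17%. UBN1, a subunit of the HIRA chaperone complex, differed by 0.56 ± 0.20 (SE), HAT1, which acetylates new H4, by -0.22 ± 0.13 (SE) and ATRX by -0.17 ± 0.11 (SE). Genes of histone mRNA processing and transcription had a median of -0.05 over 18 of 19, with 1 higher and 3 lower, the lower count again near 17%. SLBP, which binds the stem-loop of histone mRNAs, read 12.89 and 12.59 on the sh-ACTL6A arrays and 13.06 and 12.98 on the scramble arrays, so both sh-ACTL6A arrays were below (-0.28 ± 0.13, SE). CASP8AP2, a component of histone locus bodies, differed by -0.23 ± 0.13 (SE). CPSF1, a subunit of the cleavage factor, had the lowest value (-2.78 ± 0.80, SE) at a dim mean signal of 4.06.

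DNA replication genes, which are active in the same phase of the cell cycle, had a median of -0.02 over 37 of 38 genes. Of these, 1 was higher and 5 were lower on both sh-ACTL6A arrays, where 17.4% and 17% of all genes were. RRM2, the ribonucleotide reductase subunit, read 13.40 and 13.61 on the sh-ACTL6A arrays and 13.28 and 13.31 on the scramble arrays (0.21 ± 0.11, SE). PCNA, the sliding clamp of DNA polymerases, read 13.55 and 13.46 on the sh-ACTL6A arrays and 13.76 and 13.62 on the scramble arrays (-0.19 ± 0.11, SE), and RFC4 differed by -0.41 ± 0.23 (SE). By limma, 0 genes of the 4 lists passed the adjusted threshold. At an unadjusted p under 0.05, 1 (UBN1) was higher and 1 (CPSF1) lower, where 2.59% of all genes were higher and 2.74% lower.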

How the data were processed

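RNA of 2 sh-ACTL6A and 2 scramble samples of SNU638 cells was labelled with biotin and hybridised to oligonucleotide arrays. The authors deposited log2 signals of 54675 probe sets, and the submitters' processing notes name MAS5 (version not given in the sources used here). Linear signals have a trimmed mean of 500.0 on every array, so the deposited values carry a global scaling; they were used without further normalisation. Symbols came from a platform annotation, and all 49 histone probe sets matched RefSeq (GRCh38.p14) under the same symbol. Differences were fitted over 54613 probe sets with limma 3.58.1 in R 4.3.3 (lmFit, eBayes with intensity trend, 2-sided, Benjamini-Hochberg), checked on simulated data. Since separate cultures are not stated, p-values cover array-to-array spread alone, and that spread may be technical.

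The members and lists (replication-independent histones, histone chaperones, histone mRNA processing and transcription, DNA replication, and epithelial, leukocyte, and fibroblast and endothelial markers) were chosen with earlier results of these data known. A listed gene was represented by its brightest probe set. Per family, the text names up to 3 of the brightest and 3 of the most different bright probe sets, the highest and lowest difference, and genes with several probe sets; per pathway list, the 3 smallest unadjusted p. Other members named are descriptions. Alternatives were quantile normalisation, median centring, filters at the 50th and 75th percentile, 1 probe set per gene, an offset, a replicate block, no trend, the methods' t-test, and leaving out each array.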

Additional observations from a re-analysis of the deposited data

How the results depend on the processing

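The median difference over all histone probe sets kept its direction and moved by less than the spread between replicates under every alternative run, and 0 histone probe sets passed the adjusted threshold in any of them. Leaving out 1 array at a time gave a range of 0.42 to 0.61 for this median, 0.22 to 0.39 for H1, 0.50 to 0.78 for H2A, 0.42 to 0.92 for H2B, 0.13 to 0.50 for H3 and 0.47 to 0.85 for H4. It gave 0.38 to 0.60 for _at, 0.42 to 0.87 for _x_at and 0.081 to 0.62 for _s_at probe sets, and -1.71 to -1.55 for ACTL6A. These fits assume that the lone array of a group varies like the other group. With the filter at the 50th percentile the median was 0.37 for H1 and 0.17 for H3, and with 1 probe set per gene it was 0.19 for H3. The filter at the 75th percentile left 9 histone probe sets, all 9 higher on both sh-ACTL6A arrays. There H1 stood at 0.54 from H1-2 alone, and _s_at at 0.79 from H2AC6 alone. The count of probe sets higher with the groups apart (33) was followed through the alternatives after the data had been seen. It was 25 of 31 with the filter at the 50th percentile and 30 of 44 with 1 probe set per gene. With 1 array left out it was 34 to 40, but the rule then asks for less and the count could not fall. The replicate block left every histone difference as it was and called 3 probe sets in all, 2 higher and 1 lower; the 1 lower was ACTL6A (-1.63, limma adjusted p = 0.0116). The replicate numbers pair no samples in the labels, and deviations of same-numbered arrays correlated at 0.0111 over all probe sets, 0.100 over the bright ones and -0.21 over the histone probe sets. Some controls split by replicate number all the same. In the order sh-ACTL6A, scramble, 18S rRNA read 9.92, 9.56 with number 1 but 10.70, 10.45 with number 2. Thr read 7.05, 6.97 against 7.49, 7.41, and the ACTB 3′ over 5′ signal was 1.21, 1.63 against 0.78, 0.78. Dap and phe split by group instead. What lies behind either split was not tested. The number of arrays limits the precision at every signal. Below the threshold of 5.63 the groups overlapped for 9 of 18 histone probe sets, where they did for 17975 of all 27306.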

Other observations

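A further 20 histone probe sets carry several gene symbols, all of them within the rule, and were left out of the values above because no single gene can be named. Their median difference was 0.61, with 19 of 20 above 0, 13 higher on both sh-ACTL6A arrays and 1 lower. All 15 bright ones lay above 0, at 0.11 to 0.75, with the groups apart for 10. The brightest, an H4 probe set that lists 14 symbols, read 14.09 and 14.13 on the sh-ACTL6A arrays and 13.47 and 13.90 on the scramble arrays (0.43). An H2A probe set that lists 2 symbols read 11.02 and 11.50 on the sh-ACTL6A arrays and 10.52 and 10.61 on the scramble arrays (0.70). An H3 probe set that lists 10 symbols overlapped, at 7.75 and 8.81 on the sh-ACTL6A arrays and 7.69 and 7.78 on the scramble arrays (0.55). The 1 lower probe set was a dim H4 one, at 4.90 and 4.96 on the sh-ACTL6A arrays and 5.10 and 5.62 on the scramble arrays (-0.43). Many of these probe sets match genes counted among the 49, so they are not independent of them.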
